A study of Arabidopsis thaliana with 75 samples.

Results

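The 10 genes described here encode small C2H2 zinc finger proteins of Arabidopsis thaliana, namely ZAT5 (AT2G28200), ZAT6 (AT5G04340), ZAT7 (AT3G46090), ZAT10 (AT1G27730, also STZ), ZAT11 (AT2G37430), ZAT12 (AT5G59820), ZAT18 (AT3G53600), AZF1 (AT5G67450), AZF2 (AT3G19580) and AZF3 (AT5G43170). They were chosen by gene identifier, and all 10 were found among the 32833 genes of the count table. All 10 also passed the filter on low counts, as did 23475 genes in all. Messenger RNA was sequenced from blade-cut leaves, taken from plants aged 4 weeks, in 25 groups of 3 libraries. The gpat4 gpat8-labelled libraries, after a pair of acyltransferase genes of cutin synthesis, cover 0h, 2h, 4h and 12h and then 1D, 2D and 3D. Those labelled rbohE, after an NADPH oxidase gene, cover 0h, 2h and 4h and then 1D, 3D and 5D. Wild type (WT) leaves were taken at 0h, 1h, 2h, 4h, 6h, 12h, 18h, 1D, 2D, 3D, 4D and 5D. The labels give "wound" as the treatment of every group, 0h included, and name no allele, accession or leaf pool. Nothing in them says that replicates came from separate plants, so p-values measure the spread between these libraries, which may be technical.

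Proteins of this family carry a pair of zinc fingers that bind DNA. Most also carry a short EAR motif, through which plant repressors recruit co-repressors such as TOPLESS. Their genes are known for fast induction by wounding, cold, salt, drought and reactive oxygen. ZAT10 and ZAT12 are the members best known from oxidative, high light and cold responses, and AZF1 and AZF2 act under abscisic acid and salt.

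The libraries summed to between 46045188 and 67376782 counts (median 61143105). Replicates correlated at 0.972 to 0.988 over 75 pairs (Pearson r, log-scaled values). Of 3 mesophyll markers, RBCS1A and RCA stood at 691.8 and 772.8 CPM or more in every library (CPM is the count relative to the TMM-scaled library total), and CA1 ran from 12.16 to 3129 CPM. Of 3 epidermal markers, ATML1 and FDH were present throughout, and PDF1 stood at 0 to 1.72 CPM. An M stands in the descriptions of the 9 gpat4 gpat8-labelled libraries of 0h, 12h and 1D, which the labels do not explain. GPAT4 was called lower in gpat4 gpat8-labelled libraries than in WT at 2h, 4h and 3D (log2 difference -1.58, -1.28 and -1.39). It was not called at 0h (-0.29), 12h (-0.33), 1D (-0.72) or 2D (-0.20), and the first 3 of these times are those of the M libraries. GPAT8 went against that label, being called higher at 4h, 12h, 1D, 2D and 3D (1.06 to 2.41), so each direction given for these libraries rests on their label. RBOHE was called lower in rbohE-labelled libraries at 3D (-4.06) and 5D (-3.36) and was not called at 1D (-0.12, edgeR adjusted p 0.958). At 0h, 2h and 4h it went against the label, being called higher in those libraries (1.88, 1.59 and 1.85), with at most 1.23 CPM in any library of these groups.

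Each member has 1 exon in the RefSeq annotation of TAIR10.1, so no intron separates its reads. ZAT7 matches AT3G46080 at 83.3% identity over 80.7% of its transcript, and AZF3 overlaps AT5G43160 on the opposite strand, so the values of ZAT7 and AZF3 are uncertain. The 250 bases before each annotated gene start were searched on both strands for 4 motifs. The W-box core, TTGAC, is a short site that WRKY factors bind. It was found before 8 of the 10 genes and in 44.9% of all 27443 promoters of that length. The rapid stress response element, CGCGTT, was found before 0 of the 10 (2.59% of all promoters), and so was the G-box, CACGTG (6.49%). The abscisic acid response element, ACGTGG or ACGTGT, was found before ZAT10 and ZAT18 (16% of all promoters). Since 10 promoters are few and other lengths were not searched, these counts describe the window only.

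The promoters of ZAT18, AZF2 and ZAT6 are shown, because ZAT18 holds the most W-box cores of the 10 and AZF2 the core nearest to its start. ZAT6, like AZF3, holds none. A link between these cores and the changes in level was not tested. They are written 5′ to 3′ on the strand of the gene, in lower case, with each W-box core in capitals as TTGAC, or as GTCAA where it lies on the other strand. ZAT18 (chr3:19875125-19875374, plus strand) has cores that begin 99, 32 and 17 bases upstream. AZF2 (chr3:6804297-6804546, minus strand) has cores that begin 35 and 9 bases upstream. ZAT6 (chr5:1217363-1217612, minus strand) has no core in this window.
ZAT18: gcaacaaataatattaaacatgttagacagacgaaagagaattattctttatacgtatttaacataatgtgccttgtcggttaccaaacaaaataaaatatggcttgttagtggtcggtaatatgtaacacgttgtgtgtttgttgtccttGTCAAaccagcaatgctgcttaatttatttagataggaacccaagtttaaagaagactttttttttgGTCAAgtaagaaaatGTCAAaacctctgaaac
AZF2: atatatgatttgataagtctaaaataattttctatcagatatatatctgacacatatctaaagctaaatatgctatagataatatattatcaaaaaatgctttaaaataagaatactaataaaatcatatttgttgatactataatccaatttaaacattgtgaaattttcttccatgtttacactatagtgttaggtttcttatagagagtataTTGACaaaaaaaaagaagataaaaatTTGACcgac
ZAT6: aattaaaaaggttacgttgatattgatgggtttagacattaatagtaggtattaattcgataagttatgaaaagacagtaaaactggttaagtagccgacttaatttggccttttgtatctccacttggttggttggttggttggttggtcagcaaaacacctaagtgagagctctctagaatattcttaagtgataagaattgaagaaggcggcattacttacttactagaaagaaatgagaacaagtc

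**Figure D1:**
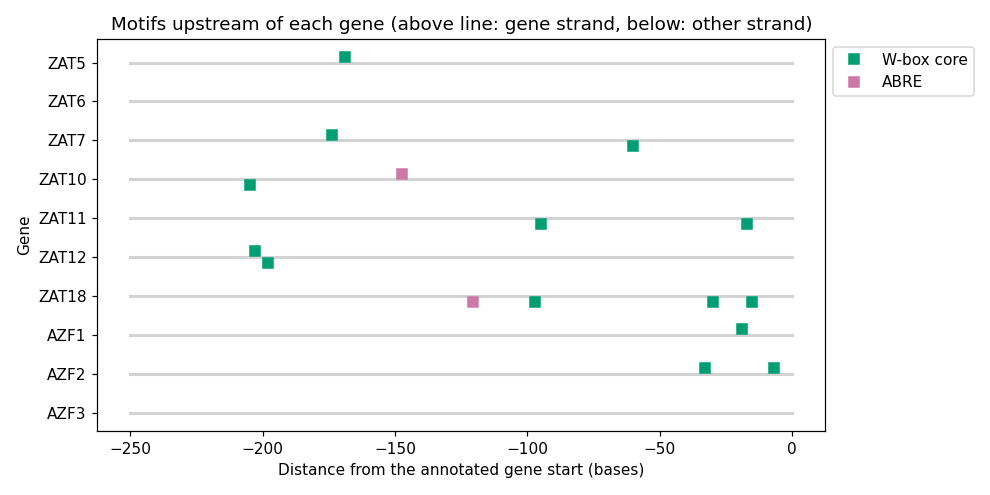
Motifs in the 250 bases upstream of each gene, with the distance from the annotated gene start in bases on the horizontal axis and 1 gene a row. Squares above a line lie on the strand of the gene and squares below it on the other strand. ZAT6 and AZF3 hold neither the W-box core nor the abscisic acid response element.

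In WT, 9 of the 10 genes rose within 1h of wounding and ZAT5 fell. At 1h against 0h, 9 members were called higher, where 16.3% of all genes tested were, and 1 was called lower, where 17.2% were. A gene is called when its edgeR adjusted p is under 0.05 and its log2 fold change is at least 1 in either direction. The median log2 fold change of the 10 was 3.83, against -0.10 for all genes. No leaves left without a wound were analysed at later times, so the hours since the cut and the time of day cannot be told apart. The clock gene CCA1 stood at 158 ± 18.9 CPM at 1h and 10.2 ± 2.2 CPM at 0h (SD, n = 3 each). Markers of leaf cell types moved over the same step. The guard cell channel gene KAT1 stood at 17.4 ± 2.35 CPM at 1h and 73.9 ± 10.5 CPM at 0h, and the phloem sucrose carrier gene SUC2 at 757 ± 44.7 CPM at 1h and 418 ± 3.89 CPM at 0h. The mesophyll markers did not move together. CA1 stood at 158 ± 8.54 CPM at 1h and 571 ± 389 CPM at 0h. RCA went the other way, with 6945 ± 446 CPM at 1h and 4326 ± 577 CPM at 0h. RBCS1A stood at 2347 ± 91.2 CPM at 1h and 2816 ± 547 CPM at 0h. The part of clock and cell type markers in the member changes was not tested. In leaf RNA, a change in level and a change in the share of cells that express a gene cannot be told apart either.

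ZAT10, a repressor linked to salt and light stress responses, was the most abundant member per transcript length at 1h, with a mean of 395 CPM per kilobase. Its 3 libraries held 508, 517 and 520 CPM at 1h, against 33.4, 14.4 and 39.5 CPM at 0h. The 1h libraries lay close together and far above those of 0h (a log2 fold change of 4.14 ± 0.60 SE with an edgeR adjusted p of 2.46e-08). It stood at 353, 314 and 321 CPM at 2h, and at 12h, with 30.7 to 51.1 CPM, it was not called against 0h (0.45). ZAT12, needed for tolerance of oxidative stress, held 128, 130 and 146 CPM at 1h, against 8.12, 4.06 and 3.34 CPM at 0h. The groups did not overlap either (4.70 ± 0.52, edgeR adjusted p 1.84e-11). Unlike ZAT10, it was still called higher at 12h (2.03). Its call at 3D (1.12) was lost without replicate 2 or 3 of WT 0h or replicate 3 of WT 3D (0.82 to 0.98). It was also lost with no filter (edgeR adjusted p 0.0531), with counts divided by the spacing of the low values (0.0504) and with only the groups compared (0.0506). ZAT6, linked to phosphate supply and root growth, reached its highest mean at 2h, with 629, 535 and 506 CPM, against 38.8, 18.3 and 26.1 CPM at 0h (4.32 ± 0.32, edgeR adjusted p 1.53e-17). At 4h it was lower than at 2h by a log2 fold change of -2.23, at 135, 107 and 115 CPM, and ZAT10 (-1.40) and ZAT12 (-1.11) fell over the same step. The calls of ZAT10 and ZAT12 were lost when replicate 2 or 3 of WT 4h was left out, and that of ZAT12 also without replicate 1 of WT 2h.

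**Figure D2:**
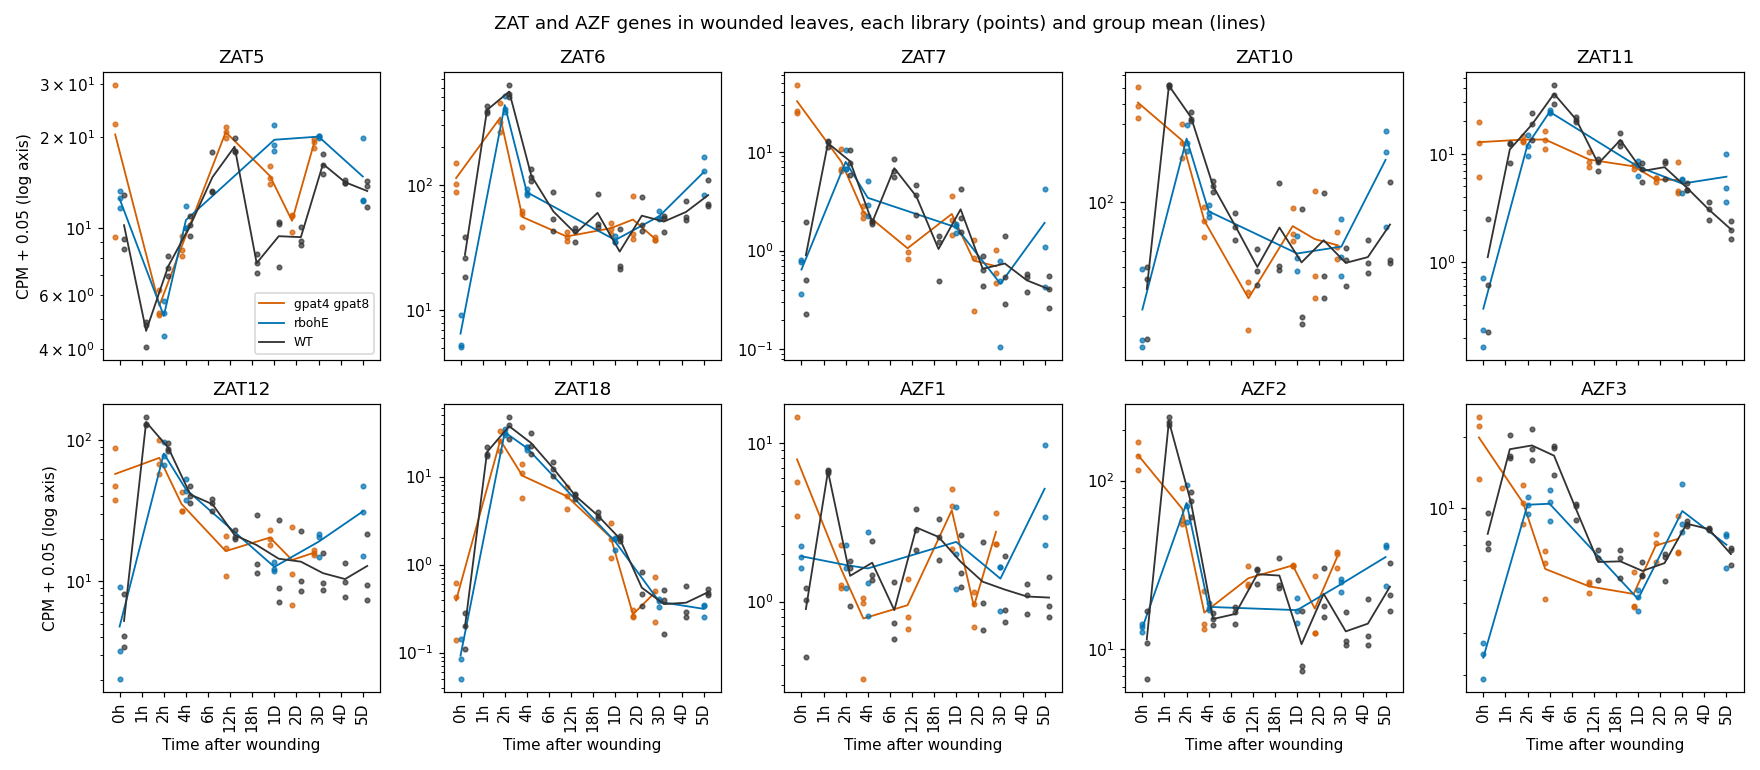
CPM + 0.05 of each gene on a log axis against time after wounding, with each library as a point and group means joined by lines, for gpat4 gpat8-labelled libraries, those labelled rbohE and WT. In WT, ZAT10, ZAT12, AZF1, AZF2 and ZAT7 have their highest mean at 1h, ZAT6, ZAT18 and AZF3 at 2h, and ZAT11 at 4h.

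AZF2 and AZF1 had fallen again by 2h. AZF2, which acts under abscisic acid and salt, held 221, 237 and 215 CPM at 1h, against 16.8, 10.9 and 6.63 CPM at 0h (4.29 ± 0.33 on the log2 scale, edgeR adjusted p 7.49e-17). It then fell at each of the next steps, to 85.6, 75.7 and 61.0 CPM at 2h (-1.60 against 1h) and to 15.1, 13.9 and 16.4 CPM at 4h (-2.29 against 2h). It was called higher than at 0h again at 12h (1.28) and 18h (1.26), with 24.4, 29.3 and 29.9 CPM at 12h. The value at 18h was under the minimum without replicate 3 of WT 0h (0.98). AZF1, at much lower levels, held 6.42, 6.67 and 6.63 CPM at 1h, against 0.977, 0.394 and 1.17 CPM at 0h (2.94 ± 0.55, edgeR adjusted p 5.15e-06). Its level at 2h, 1.58, 1.75 and 0.883 CPM, overlapped that of 0h. It rose again between 6h and 12h (1.79 ± 0.53, edgeR adjusted p 0.0056), to 3.77, 2.79 and 2.08 CPM. AZF3 changed least of the 9 that rose, to 20.4, 16.2 and 16.5 CPM at 1h, against 7.13, 6.68 and 9.48 CPM at 0h (1.19 ± 0.19). It stayed called through 4h (1.10) and not at 6h (0.34).

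ZAT18 and ZAT11 had their highest means at 2h and 4h and were still called on the following days. ZAT18, reported as a factor in drought tolerance, had the largest fold change of the members. It held 18.1, 17.3 and 21.4 CPM at 1h and 38.4, 47.2 and 26.5 CPM at 2h, against 0.229, 0.0591 and 0.148 CPM at 0h. The 0h libraries held only 15, 3 and 9 counts, so the size of the fold change (7.93 ± 0.47 at 2h, edgeR adjusted p 8.79e-22) depends on the prior count of the fit. It was called higher at every time to 2D and at 5D, and its mean CPM stepped down over 4h (23.9), 6h (12.3), 12h (5.97), 18h (3.58) and 1D (1.93). Its call at 2D was lost without replicate 3 of WT 2D (1.21), and that at 5D without replicate 2 of WT 0h (1.2). ZAT11, linked to root growth and nickel tolerance, held 42.9, 34.8 and 28.9 CPM at 4h, against 0.565, 0.177 and 2.45 CPM at 0h (5.04 ± 0.44, edgeR adjusted p 1.08e-14). It was called higher at 10 of the 11 later times, 5D being the exception (0.87), and without replicate 3 of WT 0h it was called at 5D too (2.34). It still held 4.60, 4.58 and 5.32 CPM at 3D (2.16).

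ZAT7, linked to salt tolerance, had a double peak. Its libraries held 12.8, 12.5 and 11.3 CPM at 1h, 10.4, 7.71 and 5.84 CPM at 2h, 1.90, 1.80 and 1.95 CPM at 4h, and 8.42, 6.38 and 5.52 CPM at 6h. The drop to 4h (log2 fold change -2.08 against 2h) and the rise to 6h (1.85 ± 0.57 against 4h, edgeR adjusted p 0.00899) were both called, where 2.69% of all genes were called higher at 6h than at 4h. No other member was called between 4h and 6h. AT3G46080, its close relative in sequence, was chosen for description after its values were seen. It held 6.27 ± 1.08 CPM at 6h and 1.93 ± 0.163 CPM at 4h (1.70 ± 0.41, edgeR adjusted p 0.00083), so reads shared between the pair could move both, which was not tested. ZAT7 was called higher than at 0h at 1h, 2h, 6h, 12h and 1D. At 4h its level overlapped that of 0h, where replicate 3 held 1.91 CPM and the others 0.458 and 0.177 CPM, and without that library 4h was called higher too (2.52).

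ZAT5 moved the other way. It held 4.85, 4.74 and 4.01 CPM at 1h, against 12.9, 8.50 and 9.18 CPM at 0h, and the groups did not overlap (log2 fold change -1.17 ± 0.19, edgeR adjusted p 4.43e-07). Without replicate 1 of WT 0h the difference was -0.96, under the minimum. Its mean CPM then went up over 2h (7.44), 4h (10.2), 6h (14.7) and 12h (18.5), and 18h was lower than 12h (-1.28 ± 0.19, edgeR adjusted p 1.98e-07). Over the 25 group means its log-scaled level had a negative Pearson correlation with 8 of the other 9 members, lowest with ZAT6 (-0.585). The closest pair was ZAT10 and ZAT12 (0.904), followed by ZAT6 and ZAT10 (0.894). These correlations are descriptions over groups that share genotypes and times.

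The number of members called higher than at WT 0h went down over the first days. At 2h it was 8, where 18.2% of all genes were called higher. It was 6 for each of 4h (13.9% of all genes), 6h (9.83%), 12h (9.68%) and 18h (8.41%). It was 4 for both 1D (9.38%) and 2D (10.7%), 2 for both 3D (10.6%) and 4D (9.43%), and 5 for 5D (9.69%). No member was called lower at any of these times. At 5D the members called were ZAT6 (1.58), ZAT10 (1.31), ZAT12, ZAT18 (1.52) and AZF2 (1.04). Single libraries set the later counts. Without replicate 3 of WT 5D, ZAT10 (0.56), ZAT12 (0.68) and AZF2 (0.73) were not called. Without replicate 3 of WT 1D, ZAT7 (1.06) and ZAT12 (0.62) were not called, and the count was 2. Without replicate 3 of WT 2D, ZAT6 (0.71), ZAT12 (0.83) and ZAT18 (1.21) were not called, and the count was 1. WT 0h also sets these counts. Without its replicate 2, ZAT6 was under the minimum at 6h, 18h, 2D and 4D (0.81 to 0.92). ZAT10 was then not called at 6h (0.96) or 5D (0.99). Also lost were ZAT12 (1.16) and ZAT18 (1.2) at 5D, AZF1 at 18h (1.23) and ZAT7 at 1D (1.12), and ZAT7 was called lower at 5D (-1.69). Without replicate 3 of WT 0h, ZAT12 was not called at 1D (1.23), 2D (1.17) or 5D (1.06). ZAT6 at 2D (0.99) and AZF2 at 5D (0.76) were then under the minimum. Calls were gained for ZAT7 at 4h (2.52), ZAT10 at 18h (1.53) and ZAT11 at 5D (2.34). ZAT6 also fell under the minimum at 6h without replicate 2 of WT 6h (0.80) and at 18h without replicate 3 of WT 18h (0.79). The call of ZAT10 at 6h was also lost without replicate 1 of WT 0h (edgeR adjusted p 0.0599) and with no filter (0.0607). The same held without replicate 1 (0.0652) or 2 (0.11) of WT 6h. At 5D, ZAT10 was also not called without replicate 1 of WT 0h (edgeR adjusted p 0.0575) or with only the groups compared (0.119).

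**Figure D3:**
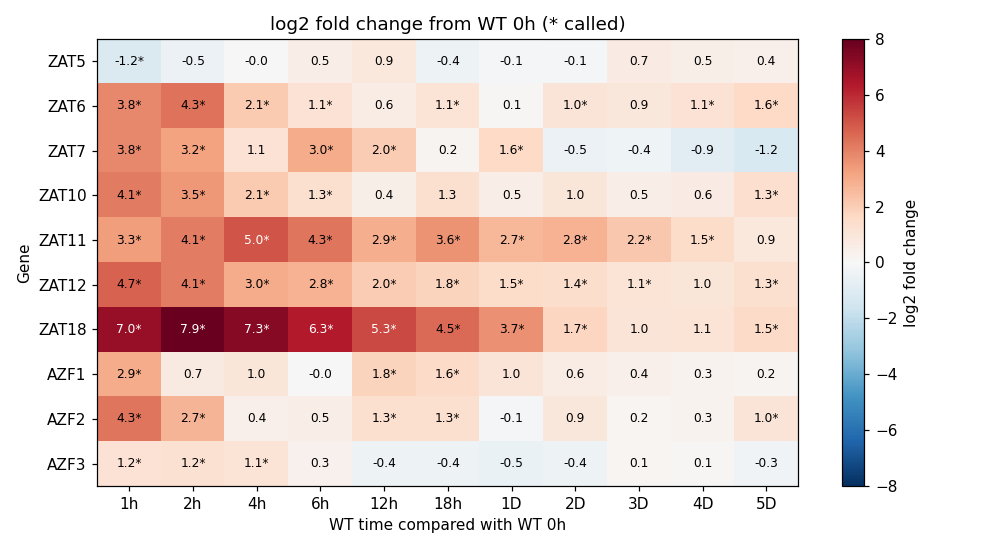
log2 fold change of each gene (rows) at each WT time (columns) from WT 0h, with red for higher and blue for lower, and an asterisk on called values. The highest values are those of ZAT18 at 1h, 2h and 4h (6.95, 7.93 and 7.29), and the called blue cell is ZAT5 at 1h.

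Between neighbouring WT times, 2 members fell at 2h against 1h (AZF1 and AZF2, 12.4% of all genes called lower) and 5 fell at 4h against 2h (ZAT6, ZAT7, ZAT10, ZAT12 and AZF2, 9.94%). At 12h against 6h, ZAT11 (-1.35) and ZAT18 (-1.04) fell (4.25%) and AZF1 rose (6.43%). At 18h against 12h, ZAT5 and ZAT7 (-1.82) fell (4.18%), and at 1D against 18h, ZAT6 (-1.03) and AZF2 (-1.36) fell (1.87%). At 2D against 1D, ZAT7 (-2.07) and ZAT18 (-1.93) fell (3.61%). Single libraries carried some of these calls. That of ZAT18 at 12h was lost without replicate 2 of WT 6h (-0.89) or replicate 3 of WT 12h (-0.98), and that of ZAT7 at 18h without replicate 1 of WT 12h (-1.57) or replicate 2 of WT 18h (-1.46). That of ZAT6 at 1D was lost without replicate 3 of WT 18h (-0.70) or replicate 1 or 2 of WT 1D (-0.84 and -0.86), and that of ZAT7 at 2D without replicate 3 of WT 1D (-1.55). From 2D to 5D, 0 members were called in the 3 steps, where 3.8%, 0.933% and 1.25% of all genes were. In those steps 2, 0 and 0 members had an edgeR adjusted p under 0.05.

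At 0h, 8 of the 10 members were higher in gpat4 gpat8-labelled libraries than in WT, where 10.8% of all genes were called higher. The median log2 difference of the 10 was 3.33, against -0.02 for all genes. ZAT7 held 24.4, 25.7 and 47.5 CPM in gpat4 gpat8-labelled libraries, against 0.458, 0.177 and 1.91 CPM in WT (log2 difference 5.24 ± 0.66, edgeR adjusted p 1.4e-09). That is above its WT mean at any time, the highest of which was 12.2 CPM. ZAT10 held 386, 328 and 502 CPM in gpat4 gpat8-labelled libraries, against 33.4, 14.4 and 39.5 CPM in WT (3.80 ± 0.59). AZF2 held 116, 141 and 169 CPM in these libraries, against 16.8, 10.9 and 6.63 CPM in WT (3.63 ± 0.32, edgeR adjusted p 3.23e-14). For all 3 genes the groups were far apart and did not overlap. ZAT11 (3.56), ZAT12 (3.47), AZF1 (3.20), ZAT6 (2.03) and AZF3 (1.35) were also called.

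The other 2 members were not called at 0h. ZAT18, the member with the largest change in WT, held 0.088, 0.562 and 0.375 CPM in gpat4 gpat8-labelled libraries, against 0.229, 0.0591 and 0.148 CPM in WT (1.21, edgeR adjusted p 0.0634, overlapping). ZAT5 held 22.1, 29.7 and 9.29 CPM, against 12.9, 8.50 and 9.18 CPM in WT, just under the minimum (0.9968). These 0h libraries are all M libraries, so the library series and the label cannot be told apart. Clock genes stood far apart in the same comparison. CCA1 had 289 ± 38.8 CPM in gpat4 gpat8-labelled libraries and 10.2 ± 2.2 CPM in WT, LHY 216 ± 24.7 and 8.12 ± 1.38 CPM, and TOC1 15.2 ± 3.32 and 139 ± 10.8 CPM (SD, n = 3 each). KAT1 stood at 23.3 ± 3.04 CPM in gpat4 gpat8-labelled libraries and 73.9 ± 10.5 CPM in WT, and RCA at 8361 ± 644 and 4326 ± 577 CPM. The mesophyll markers RBCS1A (3165 ± 198 and 2816 ± 547 CPM) and CA1 (773 ± 374 and 571 ± 389 CPM) were closer. The part of these genes in the member differences was not tested.

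**Figure D4:**
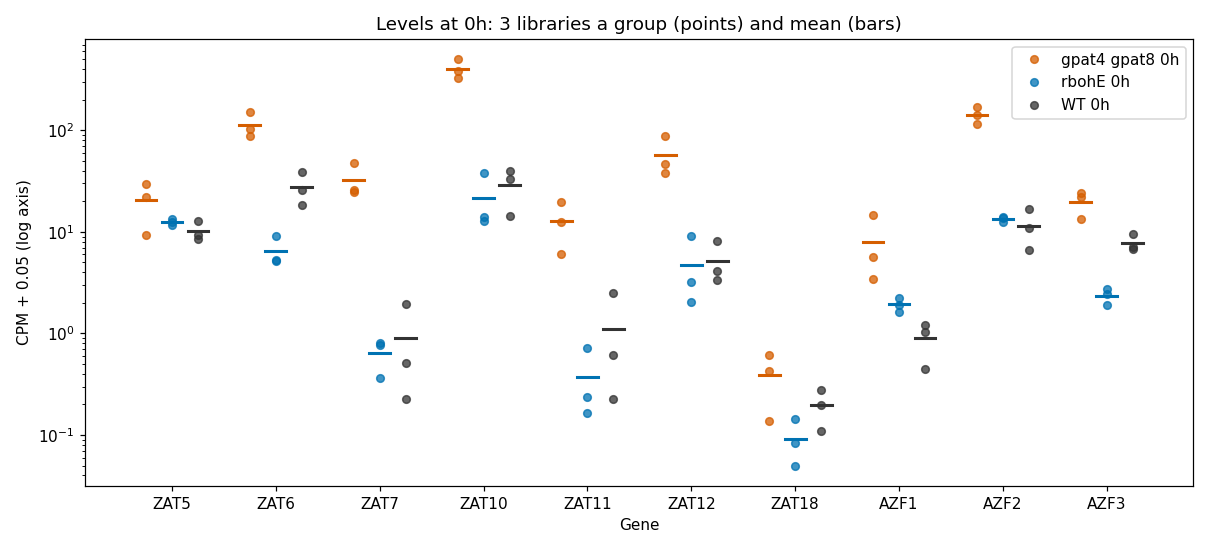
CPM + 0.05 on a log axis of each gene at 0h, for gpat4 gpat8-labelled libraries, those labelled rbohE and WT from left to right. Points are libraries and bars are means of 3. ZAT7, ZAT10, ZAT11, ZAT12, AZF1, AZF2, ZAT6 and AZF3 lie higher in gpat4 gpat8-labelled libraries than in WT, and ZAT6 and AZF3 lie lower in those labelled rbohE.

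After wounding, the difference from WT was smaller and turned the other way at some times. At 2h, 0 members were called (6.85% of all genes were), and 1 had an edgeR adjusted p under 0.05. At 4h, 4 members were lower in gpat4 gpat8-labelled libraries (7.39% of all genes called lower). AZF3 held 5.84, 4.12 and 6.58 CPM, against 18.2, 17.9 and 13.7 CPM in WT (-1.59 ± 0.19, edgeR adjusted p 3.3e-10). ZAT11 held 16.0, 10.9 and 13.4 CPM, against 42.9, 34.8 and 28.9 CPM in WT (-1.40 ± 0.37), and neither gene overlapped between the groups. ZAT18 (-1.24) and ZAT6 (-1.10) lost their call without replicate 2 of gpat4 gpat8 4h (-0.95 and -0.98). The libraries at 2h and 4h carry no M. Leaf markers still stood apart at 4h. CA1 had 1855 ± 67.3 CPM in gpat4 gpat8-labelled libraries and 55.3 ± 5.59 CPM in WT. RBCS1A had 4272 ± 254 and 732 ± 52.2 CPM, and RCA 2941 ± 267 and 843 ± 28 CPM. KAT1 was alike, with 185 ± 25.4 and 184 ± 6.74 CPM (SD, n = 3 each). The part of these markers in the member differences was not tested.

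At 12h, ZAT7 (-1.79, 1.01 ± 0.281 against 3.48 ± 1.18 CPM in WT) and AZF1 (-1.67, 0.899 ± 0.377 against 2.88 ± 0.848 CPM) were lower, where 5.53% of all genes were called lower. The call of ZAT7 was lost without replicate 1 of either group, and that of AZF1 without replicate 2 of gpat4 gpat8 12h. These 12h libraries carry an M, and the clock genes stood apart here too. CCA1 had 320 ± 24.1 CPM in gpat4 gpat8-labelled libraries and 71.3 ± 3.25 CPM in WT, LHY 338 ± 39.2 and 132 ± 2.89 CPM, and TOC1 11.9 ± 1.01 and 74.0 ± 0.795 CPM, and their part was not tested. At 1D and 3D, the member called was AZF2, which was higher (7.8% and 2.52% of all genes called higher). It held 31.8, 31.2 and 31.3 CPM in gpat4 gpat8-labelled libraries at 1D, against 7.89, 7.44 and 16.8 CPM in WT (1.56 ± 0.30, edgeR adjusted p 2.43e-05). At 3D it held 36.6, 37.8 and 30.5 CPM, against 10.6, 11.1 and 16.5 CPM in WT (1.46 ± 0.30), and the groups did not overlap at either time. The 1D libraries of this label carry an M, so series and label cannot be told apart there, and those of 3D carry none. At 1D, CA1 had 1217 ± 248 CPM in gpat4 gpat8-labelled libraries and 25.1 ± 3.12 CPM in WT, and RBCS1A 3020 ± 58.1 and 1394 ± 63.9 CPM. TOC1 was close, with 220 ± 8.79 and 210 ± 12.6 CPM. The part of these genes was not tested. At 2D, 0 members were called (2.07% of all genes were) and 0 had an edgeR adjusted p under 0.05.

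Set against their own 0h, gpat4 gpat8-labelled libraries showed more members lower than higher at each time, and most members lower from 4h on. At 2h, ZAT6 and ZAT18 were higher (17.8% of all genes called higher) and ZAT5, ZAT7, AZF1 and AZF2 lower (18.3% called lower). At 4h, 12h and 1D, ZAT18 was the member called higher (16%, 9.6% and 12% of all genes) and 7, 7 and 6 members were lower (12.8%, 6.9% and 8.34%). At 2D and 3D, 8 members were lower at each (12.9% and 11.2%). ZAT18 held 33.1, 19.3 and 25.1 CPM at 2h, against 0.088, 0.562 and 0.375 CPM at 0h in these libraries (6.18 ± 0.42, edgeR adjusted p 4.45e-19). ZAT7 held 0.542, 0.975 and 0.417 CPM at 3D, against 24.4, 25.7 and 47.5 CPM at 0h (-5.65 ± 0.68). Comparisons of 2h, 4h, 2D and 3D with this 0h group cross the M and other libraries. Without replicate 3 of gpat4 gpat8 0h, the calls of AZF2 at 2h (-0.91), ZAT6 at 4h (-0.78) and 2D (-0.85), ZAT12 at 1D (-1.06), ZAT11 at 2D (-0.70) and 3D (-0.72) and AZF1 at 3D (-0.74) were lost. Other libraries also carried calls here, such as replicate 2 of gpat4 gpat8 0h, without which ZAT5 at 4h was -0.86.

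At 0h, 3 members were lower in rbohE-labelled libraries than in WT, where 6.27% of all genes were called lower. ZAT6 held 5.08, 9.09 and 5.29 CPM in rbohE-labelled libraries, against 38.8, 18.3 and 26.1 CPM in WT (log2 difference -2.10 ± 0.30, edgeR adjusted p 1.39e-07). AZF3 held 1.86, 2.38 and 2.67 CPM, against 7.13, 6.68 and 9.48 CPM in WT (-1.75 ± 0.20, edgeR adjusted p 2.07e-10). Neither gene overlapped between the groups. ZAT11 held 0.186, 0.116 and 0.668 CPM, against 0.565, 0.177 and 2.45 CPM in WT (-1.74 ± 0.51, edgeR adjusted p 0.00451), and its groups overlapped. Its call rests on replicate 3 of WT 0h, without which the difference was -0.26. In the same comparison CA1 stood at 2927 ± 197 CPM in rbohE-labelled libraries and 571 ± 389 CPM in WT, and TOC1 at 233 ± 8.57 and 139 ± 10.8 CPM, and their part was not tested.

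At 2h and 4h, 0 members were called between rbohE-labelled libraries and WT (1.78% and 2.19% of all genes were), with 1 member at an edgeR adjusted p under 0.05 at each time. At 2h ZAT6 averaged 434 ± 67.4 CPM in rbohE-labelled libraries and 556 ± 64.3 CPM in WT (SD, n = 3 each), and ZAT10 held 297, 204 and 229 CPM in rbohE-labelled libraries, against 353, 314 and 321 CPM in WT. At 1D, ZAT5 was higher (0.609% of all genes called higher), with 18.8, 18.0 and 21.8 CPM in rbohE-labelled libraries, against 10.5, 7.38 and 10.3 CPM in WT (1.06 ± 0.19, edgeR adjusted p 0.00013). It fell under the minimum without replicate 3 of rbohE 1D (0.97) or replicate 2 of WT 1D (0.92). At 3D, 0 members were called (0.498% of all genes) and 1 had an edgeR adjusted p under 0.05.

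At 5D, ZAT7 (2.34), AZF1 (2.32) and ZAT11 (1.63) were higher in rbohE-labelled libraries, where 1.33% of all genes were called higher. AZF1 held 2.21, 3.37 and 9.69 CPM in rbohE-labelled libraries, against 0.750, 1.39 and 0.894 CPM in WT (edgeR adjusted p 0.00388). ZAT11 held 3.55, 4.75 and 9.98 CPM, against 1.60, 1.94 and 2.34 CPM in WT (edgeR adjusted p 0.00585). ZAT7 held 0.377, 1.05 and 4.15 CPM, against 0.212, 0.504 and 0.355 CPM in WT, and overlapped. In each gene replicate 3 of rbohE 5D was the highest by far. Without it the differences were 0.97, 1.46 and 1.08 for ZAT7, AZF1 and ZAT11, and 0 members were called, as in the fit of these 2 groups alone. The call of ZAT7 was also lost without replicate 1 or 3 of WT 5D.

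Set against their own 0h, rbohE-labelled libraries had most members rising at 2h and 4h, as in WT. At 2h, 8 members rose (21.6% of all genes called higher) and ZAT5 fell (-1.29, 23.7% called lower). At 4h, 1D, 3D and 5D, 7, 5, 6 and 9 members rose (19.2%, 12.8%, 13.9% and 12.7%), and 0 fell. At 5D, ZAT7 (1.64) and AZF1 (1.43) were not called without replicate 3 of rbohE 5D (0.28 and 0.57). At 1D, ZAT7 (1.49) and ZAT12 (1.42) lost their call without replicate 1 or 3 of rbohE 0h, and ZAT7 also without replicate 1 or 2 of rbohE 1D. At 3D, ZAT10 (1.29) lost its call without replicate 1 (1.02) or 3 (1.05) of rbohE 0h or replicate 3 of rbohE 3D (0.90). ZAT6 reached 511, 385 and 406 CPM at 2h in these libraries, against 5.08, 9.09 and 5.29 CPM at 0h (6.07 ± 0.35, edgeR adjusted p 5.61e-22). ZAT18 held 34.7, 29.7 and 31.1 CPM at 2h, against 0.0932, 0 and 0.0334 CPM at 0h in these libraries, and with so few counts at 0h the size of its fold change depends on the prior count.

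The change from 0h was then tested between genotypes. In rbohE-labelled libraries, ZAT6 rose by more than in WT at 2h, 4h, 1D, 3D and 5D (interaction log2 1.74, 1.66, 2.41, 2.25 and 2.71). AZF3 did so at 4h, 1D, 3D and 5D (1.08, 1.36, 1.93 and 1.88), ZAT11 at 1D, 3D and 5D (1.88, 1.86 and 3.37) and ZAT7 at 5D (2.88). Without replicate 3 of WT 0h, ZAT11 had 0.40 at 1D (edgeR adjusted p 0.735) and 0.39 at 3D (0.70), and ZAT7 had 1.49 at 5D (0.293). ZAT7 at 5D was 1.51 without replicate 3 of rbohE 5D (edgeR adjusted p 0.257). With only the groups compared, these 3 calls and that of ZAT11 at 5D were lost. AZF3 at 4h was under the minimum when any 1 of 4 libraries was left out (0.91 to 0.97). The shares of all genes called higher in these tests were 4.57% for 2h, 4.58% for 4h, 4.57% for 1D, 6.2% for 3D and 5.54% for 5D. These interactions share the same 0h groups, and where the levels at the later time were close, they carry the 0h difference. In gpat4 gpat8-labelled libraries, 8 members had a lower change from 0h than in WT at 12h (6.69% of all genes), and 8 at 1D (6.99%), namely all but ZAT5 and ZAT18. At 1D, AZF1 (-2.10) was not called without replicate 3 of gpat4 gpat8 0h (-1.30, edgeR adjusted p 0.165), without replicate 1 of gpat4 gpat8 1D, replicate 2 of WT 0h or replicate 3 of WT 1D (-1.71 to -1.82), or with only the groups compared (edgeR adjusted p 0.0723). ZAT6 (-1.41) was not called without replicate 3 of WT 1D (-0.99). From 2h, within libraries without an M, the change differed from WT for AZF3 to 2D (1.05 ± 0.26, 3.37% of all genes called higher) and for AZF2 to 3D (1.58 ± 0.41, edgeR adjusted p 0.00626, 2.18% called higher). That of AZF3 was under the minimum when any 1 of 4 libraries was left out (0.92 to 0.96). To 4h, 0 members differed (8.86% of all genes were called either way) and 1 had an edgeR adjusted p under 0.05.

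Genes of other stress factors were read beside the members, from lists chosen with earlier results of these data known. Of 11 rapid stress response factors, 9 were called higher in WT at 1h, where 16.3% of all genes were (median log2 fold change 2.69, against -0.10 for all genes). MYB15 (5.91 ± 0.44), WRKY40 (5.42 ± 0.63) and the calmodulin-like CML38 (5.32 ± 0.58) changed most at 1h. The same list had 10 of 11 higher at 0h in gpat4 gpat8-labelled libraries (10.8% of all genes, median 3.32, against -0.02 for all genes), 6 lower at 0h in those labelled rbohE (6.27% of all genes, median -1.03) and 6 higher in those labelled rbohE at 5D (1.33% of all genes, median 1.40). In rbohE 5D the median deviation of the list from the group mean (log2) was -1.016 in replicate 1 and 0.77 in replicate 3. The calls of the list were not tested with single libraries left out. Of 12 oxidative and cold response genes, 7 were higher in WT at 1h (16.3% of all genes) and COR15A was lower (-1.04, 17.2% of all genes called lower). The cold response factors CBF2 (8.14 ± 0.77) and CBF1 (6.80 ± 0.62) and the membrane protein gene BAP1 (4.82 ± 0.51) led. Of 10 genes of the MAP kinase cascade, 4 were higher at 1h (16.3% of all genes), namely OXI1 (5.72 ± 0.48), MEKK1 (1.96), MKK5 (1.55) and ANP1 (1.11). Of 8 EAR co-repressors, 0 were called at 1h. TPL, the gene of TOPLESS, was under the minimum at 1h (-0.62, edgeR adjusted p 1.16e-05) and was called lower at 2h (-1.03 ± 0.12), with 154 ± 14.5 CPM at 2h and 315 ± 22.2 CPM at 0h. Other genes of this list did not follow TPL. At 1h, TPR1 (0.74), TPR3 (0.60) and TPR4 (0.56) went up and TPR2 (-0.56) went down, all under the minimum. The list median was 0.008 at 1h and -0.24 at 2h.

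A list of 3 genes reported to go down when a ZAT or AZF factor is raised did not move as a group. LOX2, a lipoxygenase of jasmonate synthesis, fell at 1h in WT (-1.20 ± 0.15). At 2h LOX2 was above 0h, under the minimum (0.45 ± 0.15, edgeR adjusted p 0.00576). SAUR20 and SAUR63 averaged under 1 CPM at 0h and 1h and were not called. At 0h in gpat4 gpat8-labelled libraries, LOX2 was lower (-1.26 ± 0.15) and SAUR20 higher (3.91 ± 0.93). In those labelled rbohE, LOX2 was lower (-1.08) and SAUR20 (4.79) and SAUR63 (2.15) were higher. SAUR20 averaged 1.14 ± 0.413 CPM in rbohE-labelled libraries and 0.0376 ± 0.0416 CPM in WT, and SAUR63 3.03 ± 0.164 and 0.679 ± 0.476 CPM (SD, n = 3 each).

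For each member, the other gene with the most similar log-scaled course over the 25 groups was named from 15157 genes with a mean of at least 5 CPM. The correlation was highest for ZAT18 with AT1G47130 (Pearson r 0.991), ZAT10 with AT3G04640 (0.972) and ZAT12 with CAD1 (0.962). It was 0.936 for ZAT6 with AT1G30755, 0.932 for AZF2 with AT1G23710, 0.917 for ZAT11 with AT5G36925 and 0.912 for ZAT7 with AT1G66090. AZF1 with AT2G26190 (0.863), ZAT5 with AT2G30000 (0.858) and AZF3 with AT1G25500 (0.856) were least alike. Each value is the highest of many, so it is a description only.

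The members also varied together between replicates. ZAT10 held 19.5, 17.7 and 89.8 CPM in WT at 1D, 38.1, 40.4 and 129 CPM at 18h, 25.7, 34.9 and 113 CPM at 2D, and 42.0, 43.7 and 131 CPM at 5D. In each of these groups replicate 3 stood apart. The median deviation of the 10 members from the group mean was 0.588 (log2) in replicate 3 of WT 1D, where 8 of the 10 were highest, and 0.604 in replicate 3 of rbohE 5D. It was -0.57 in replicate 1 of rbohE 5D, where 9 were lowest, and -0.373 in replicate 2 of WT 0h. The rapid stress response list deviated the same way in these libraries, by 0.556, 0.77, -1.016 and -0.647. The typical SD between replicates (median over groups, log2) ran from 0.107 for ZAT5 to 0.387 for AZF1.

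**Figure D5:**
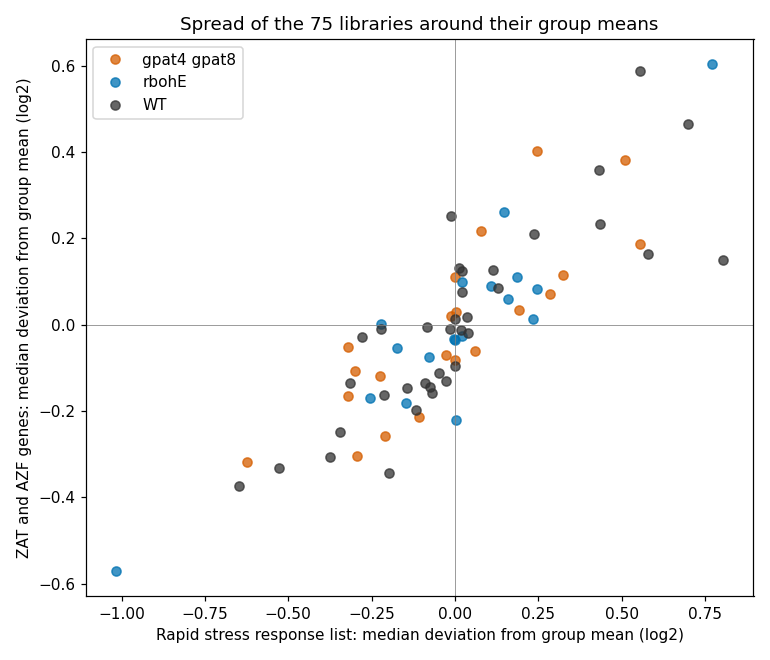
Median deviation from the group mean (log2 CPM + 0.5) of the 10 members on the vertical axis and of the 11 rapid stress response factors on the horizontal axis, with 1 point for each of the 75 libraries. Libraries high in one set are mostly high in the other, with replicate 3 of rbohE 5D at the upper right and replicate 1 of rbohE 5D at the lower left.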

How the data were processed

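The authors deposited 1 table of estimated counts per gene, with 75 library columns matched to the samples by name. Per the file headers, the column names end in stringtie. The submitters' processing notes name Trimmomatic 0.39, HISAT2 2.2.1, StringTie 1.3.4, edgeR 3.19 and the build TAIR10, and per the labels' protocols the library kit was a stranded one. Whether counting used the strand is not given in the sources used here. Values of 3 occur 38639 times and values of 4 occur 14802 times, and the low values are spaced by about 2.63 counts, so 1 fragment was worth more than 1 count.

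Counts were TMM-scaled and fitted in edgeR 4.0.16 (R 4.3.3; glmQLFit robust, glmQLFTest) with 1 coefficient per group, all 75 libraries and 55 contrasts, after filterByExpr (minimum count 10, minimum total 15). Adjusted p-values are Benjamini-Hochberg over 23475 genes, and fitted fold changes used a prior count of 0.125. SE was derived from the fold change and the F statistic. Level tables are in CPM. Scripts were tested on simulated data. Totals ran from 46045188 to 67376782 per library, and counts are lowest for ZAT18, ZAT7, ZAT11 and AZF1, each with 11 or fewer in at least 1 library.

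No replicate pair agreed within sampling noise (chi-square per degree of freedom at least 4.76). The members and lists were chosen with earlier results of these data known. The genes named are the 10 members, the most alike gene of each and at most 3 called genes of each list by size of change, plus genes a paragraph is about. A rule for further ZAT genes by symbol returned only AT2G46800, known as a zinc transporter, so no such list was used. Gene names came from RefSeq TAIR10.1, where 32548 of 32833 IDs were found. AT3G46080 was chosen after its values were seen. Planned protein motifs were not searched. Sequences were compared with BLAST 2.17.0, and promoters were cut from the RefSeq genome TAIR10.1. Alternatives were RLE scaling, no filter, a replicate block, counts divided by the spacing, DESeq2 1.42.0, only the groups compared, and each library left out, the last with the dispersion trend of all libraries.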

Additional observations from a re-analysis of the deposited data

Results flagged for a closer look

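For 31 pairs of a member and a comparison, the change over time differed between a mutant label and WT by an interaction term (edgeR, called as above, log2 difference of changes). From 0h to 12h, the change in the libraries labelled gpat4 gpat8 was below that in WT for ZAT6 (-2.11), ZAT7 (-7.03), ZAT10 (-4.44), ZAT11 (-3.43), ZAT12 (-3.85), AZF1 (-4.87), AZF2 (-3.71) and AZF3 (-1.70). From 0h to 1D it was below that in WT for ZAT6 (-1.41), ZAT7 (-5.41), ZAT10 (-3.06), ZAT11 (-3.41), ZAT12 (-2.97), AZF1 (-2.10), AZF2 (-2.08) and AZF3 (-1.68). At 1D, AZF1 was not called without replicate 3 of gpat4 gpat8 0h (-1.30, edgeR adjusted p 0.165) or with only the groups compared (edgeR adjusted p 0.0723), and ZAT6 was not called without replicate 3 of WT 1D (-0.99, edgeR adjusted p 0.0519). All of these take the 0h libraries labelled gpat4 gpat8, which carry an M and stand at high CCA1, and library series and label cannot be told apart. From 2h, where no library carries an M, it was above that in WT for AZF3 (1.05) at 2D and for AZF2 (1.58) at 3D, and that of AZF3 was under the minimum when any 1 of 4 libraries was left out (0.92 to 0.96).

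In the libraries labelled rbohE, the change from 0h was above that in WT for ZAT6 (1.74) at 2h. It was above that in WT for ZAT6 (1.66) and AZF3 (1.08) at 4h and for ZAT6 (2.41), ZAT11 (1.88) and AZF3 (1.36) at 1D. At 3D the genes were ZAT6 (2.25), ZAT11 (1.86) and AZF3 (1.93), and at 5D they were ZAT6 (2.71), ZAT7 (2.88), ZAT11 (3.37) and AZF3 (1.88). Without replicate 3 of WT 0h, ZAT11 was not called at 1D (0.40) or 3D (0.39), nor ZAT7 at 5D (1.49), and ZAT7 at 5D was not called without replicate 3 of rbohE 5D either (1.51). AZF3 at 4h was under the minimum when any 1 of 4 libraries was left out (0.91 to 0.97). With only the groups compared, ZAT11 at 1D, 3D and 5D and ZAT7 at 5D were not called. These values share the 0h libraries of both genotypes, so they are not independent of each other. Groups of 3 libraries are too small for a test of single outlying libraries.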

How the results depend on the processing

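Across all 55 comparisons, the count of members called under each planned setting was set against the count reported, and the cause of each move was not tested. With only the groups compared in the fit, fewer members were called: 2 in place of 4 at WT 1D against 0h, 0 in place of 2 at 3D, 1 in place of 2 at 4D, 2 in place of 5 at 5D, 1 in place of 2 at 1D against 18h, 0 in place of 3 for rbohE against WT at 5D, and 2 in place of 4 for its 5D interaction. With counts divided by the spacing of the low values, and with no filter on low counts, 1 in place of 2 was called at WT 3D against 0h. DESeq2 and RLE scaling each called 4 in place of 2 at WT 2D against 1D. With the replicate number as a block, 2 in place of 1 were called for gpat4 gpat8 against WT at 1D and at 3D, and 5 in place of 3 for rbohE against WT at 5D. The block moved no other count of calls by over 1.5 times. The numbers were not used as a pairing, since 0 of 45 comparisons had every same-numbered pair correlated over 0.1. These correlations took all genes tested, not the members alone. The other counts stayed within 1.5 times under these settings.

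Counts with 1 library left out are given from lowest to highest, with the libraries that moved them. Against WT 0h, they were 2 to 4 at 1D (WT 1D replicate 3), 1 to 6 at 2D (WT 0h replicate 3 and WT 2D replicate 3), 1 to 3 at 3D (WT 0h replicates 2 and 3, WT 3D replicate 3), 1 to 3 at 4D (WT 0h replicate 2, WT 4D replicate 3) and 2 to 5 at 5D (WT 0h replicate 2, WT 5D replicate 3). Between neighbouring WT times, they were 3 to 6 for 4h against 2h (WT 4h replicate 2), 1 to 3 for 6h against 4h (WT 4h replicates 2 and 3, WT 6h replicate 2), 1 to 2 for 18h against 12h (WT 12h replicate 1, WT 18h replicate 2), 1 to 3 for 1D against 18h (WT 18h replicate 3, WT 1D replicates 1 and 2) and 2 to 4 for 2D against 1D (WT 1D replicate 3, WT 2D replicates 1 and 2). For gpat4 gpat8 against WT, they were 2 to 4 at 4h (gpat4 gpat8 4h replicate 2), 1 to 2 at 12h (gpat4 gpat8 12h replicates 1 and 2, WT 12h replicate 1), 1 to 5 at 1D (gpat4 gpat8 1D replicate 1, WT 1D replicate 3) and 1 to 2 at 3D (WT 3D replicate 3). For rbohE against WT, they were 0 to 2 at 1D (rbohE 1D replicate 3, WT 1D replicates 2 and 3), 0 to 1 at 3D (WT 3D replicate 3) and 0 to 4 at 5D (rbohE 5D replicate 3). For rbohE 1D against its own 0h they were 3 to 6 (rbohE 0h replicates 1 and 3). For interactions, they were 0 to 1 for gpat4 gpat8 from 2h to 2D (gpat4 gpat8 2D replicate 1 and 2h replicate 2, WT 2D and 2h replicate 1), 1 to 3 for rbohE from 0h to 2h (rbohE 0h replicate 3, WT 0h replicates 1 and 2, WT 2h replicate 1) and 1 to 3 to 4h (rbohE 0h and 4h replicate 1, WT 0h and 4h replicate 3).

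In 16 cases a log2 value turned its sign when a library was left out. Reported first and then from lowest to highest, ZAT10 had 0.54 (-0.65 to 0.91) at WT 1D against 0h, 0.80 (-0.02 to 1.10) at 18h against 12h, -0.71 (-1.90 to 0.11) at 1D against 18h and 0.67 (-0.09 to 0.94) at 5D against 4D. ZAT7 had -0.92 (-1.37 to 0.47) at WT 4D and -1.23 (-1.69 to 0.15) at WT 5D against 0h, -0.56 (-0.98 to 0.31) at 4D against 3D, -0.54 (-0.99 to 0.85) for rbohE against WT at 0h and -0.67 (-1.35 to 0.20) at 3D. Its rbohE interactions were 0.52 (-0.87 to 0.97) at 2h and 1.38 (-0.01 to 1.83) at 4h, and those of ZAT11 were 1.12 (-0.36 to 2.18) and 1.19 (-0.29 to 2.26). AZF1 had 0.60 (-0.15 to 0.93) at WT 2D against 0h, -0.54 (-0.88 to 0.21) for gpat4 gpat8 against WT at 2D and -0.68 (-1.01 to 0.07) for its interaction from 2h to 2D. None of the 16 was called. Of 367 member values, 341 to 364 kept direction and call under each setting that used every library. ZAT5 at 0h in gpat4 gpat8 against WT, just under the minimum, was called with DESeq2 (1.06), RLE scaling (1.06) and no filter (1.03). ZAT18 in rbohE against WT at 0h has no value with only the groups compared, where it was filtered out. Counts are lowest for ZAT18, ZAT7, ZAT11 and AZF1, each with 11 or fewer in at least 1 library, while the spread between replicates (log2 SD, median over groups) is largest for AZF1 (0.387), ZAT7 (0.386) and ZAT12 (0.381).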
